A study of Homo sapiens with 12 samples.

Results

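The genes of MHC class I antigen presentation studied here were HLA-B, HLA-C, HLA-E, HLA-F, B2M, TAP1, TAP2, TAPBP and NLRC5, taken by their exact names. All 9 are among the 28265 genes of the expression table, and 5 of the 46178 regions of the m6A table carry the name of one of them. The cells were HepG2, an established human line from a liver tumour with hepatocyte features, in a condition treated with toosendanin and in a control condition. Toosendanin is a triterpenoid of Melia toosendan known for liver toxicity; the labels name no dose, time or vehicle. Sequencing covered RNA captured with an antibody against N6-methyladenosine (m6A), called IP, and the RNA not yet captured, called input, in 12 libraries with 3 for each of the groups toosendanin IP, toosendanin input, control IP and control input. The stated purpose is to learn how the compound harms such tumour cells, and the members allow a comparison of transcript levels and, for part of them, of m6A.

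MHC class I molecules show peptides from inside a cell to cytotoxic T cells and natural killer cells. A heavy chain (HLA-B and HLA-C among the classical ones, HLA-E and HLA-F among the non-classical ones) pairs with the invariant light chain beta-2 microglobulin, B2M. The transporter made of TAP1 and TAP2 moves peptides into the endoplasmic reticulum, and tapasin, TAPBP, holds empty class I molecules beside it while they load. NLRC5 is a transactivator that switches on class I genes, and it acts on a shared promoter element that contains a CRE-like site and an inverted CCAAT box. Hepatocytes carry class I at low to moderate levels, and interferons raise it through interferon-stimulated response elements.

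The promoters of B2M, TAPBP and TAP2, whose transcripts passed the test, and of HLA-B, whose transcript did not, are printed because they hold the kinds of element through which class I genes are known to be controlled. Each line is the 250 bases before the gene's start, 5′ to 3′ on the gene's strand, from RefSeq on GRCh38.p14. Capitals mark matches, on either strand, to GAAA, any 2 bases and GAAA (the core of an interferon-stimulated response element), to TGACG (CRE-like), to GATTGG (inverted CCAAT where these letters stand on the gene's strand), and to GGGGA, any 1 base and TCCCC (NF-kB-like).
B2M, chr15:44711267-44711516, + strand: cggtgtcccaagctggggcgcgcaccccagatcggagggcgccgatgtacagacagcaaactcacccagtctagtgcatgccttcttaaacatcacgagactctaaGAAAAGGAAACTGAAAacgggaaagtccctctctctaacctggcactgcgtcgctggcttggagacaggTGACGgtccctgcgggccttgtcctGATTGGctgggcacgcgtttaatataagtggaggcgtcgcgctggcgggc
TAPBP, chr6:33314079-33314328, - strand: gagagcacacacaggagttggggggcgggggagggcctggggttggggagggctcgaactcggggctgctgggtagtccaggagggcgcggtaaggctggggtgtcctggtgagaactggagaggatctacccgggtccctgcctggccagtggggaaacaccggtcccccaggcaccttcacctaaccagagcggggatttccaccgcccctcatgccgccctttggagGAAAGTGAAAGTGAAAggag
TAP2, chr6:32838740-32838989, - strand: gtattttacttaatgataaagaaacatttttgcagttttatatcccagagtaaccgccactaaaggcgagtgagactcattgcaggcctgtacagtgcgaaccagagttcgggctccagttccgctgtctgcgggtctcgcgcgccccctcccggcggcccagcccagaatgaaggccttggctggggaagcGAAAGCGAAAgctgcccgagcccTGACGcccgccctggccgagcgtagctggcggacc
HLA-B, chr6:31357180-31357429, - strand: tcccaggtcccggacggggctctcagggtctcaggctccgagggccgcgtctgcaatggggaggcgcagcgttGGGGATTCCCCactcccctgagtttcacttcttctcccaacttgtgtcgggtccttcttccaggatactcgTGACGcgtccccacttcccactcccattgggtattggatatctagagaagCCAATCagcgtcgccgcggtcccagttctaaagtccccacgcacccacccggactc
B2M held 2 overlapping matches to the response element core, of which the first begins 144 bases before the start, and 1 each to the CRE-like and the inverted CCAAT letters. TAPBP held 2 overlapping matches to the core, the nearer one ending 5 bases before the start, and none to the other motifs. TAP2 held 1 match to the core and 1 CRE-like match. HLA-B held a CRE-like and an NF-kB-like match and none to the core. Its match to the CCAAT letters is not inverted on the gene's strand. The shorter inverted letters ATTGG do stand in the printed HLA-B sequence after the CRE-like match, but without the leading G, and were not marked. Only exact letters were searched, so near matches to any of the motifs were not counted. The core was also present in members that were not called. Of the other members with a promoter entry, TAP1 held 2 overlapping matches to it, HLA-F held 1 and HLA-C none. For TAP1 this is the entry chr6:32853705-32853954. Another TAP1 entry, chr6:32852762-32853011, held 0 matches to any of the motifs. Over 35116 such windows of RefSeq genes, 3.02% held the response element core, 21.2% the CRE-like letters, 14.1% the CCAAT letters and 0.0655% the NF-kB-like letters. A promoter entry was matched for 7 of the 9 members. HLA-E and NLRC5 were not matched. A match describes these letters of the reference sequence and does not show that a factor binds there.

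After toosendanin, 3 of the class I transcripts changed, each by less than 1.5 times. B2M and TAPBP rose, TAP2 fell, and HLA-B, HLA-C, HLA-E, HLA-F, TAP1 and NLRC5 did not pass the authors' test. Per the authors' deposited DESeq2 table, where a call is an adjusted p under 0.05, 3 of 9 members were called, against 31.4% of the 16552 genes with an adjusted p. The share of members called is thus near that of all genes. Of the members, 2 were higher and 1 was lower per the authors' deposited table, against 15.7% higher and 15.7% lower over all genes. Their median log2 fold change was 0.04, against -0.000226 over all genes with an adjusted p per the authors' deposited table. At an adjusted p under 0.05 and a change of at least 2-fold, 0 of the 9 members were called per the authors' deposited table, against 7.29% of all genes, a share at which a set of 9 genes would often hold none.

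The expression table holds the authors' comparison only, so values of single libraries are not given here. Each member is described by its mean normalized count over the libraries compared, which is not divided by length and sets no order of level between genes, and by its log2 fold change, toosendanin over control, with its standard error (SE). Intervals are 95% intervals from the deposited SE. The file does not name the libraries that went into this comparison. The labels do not tell whether a group's libraries were separate cultures, and the p-values therefore reflect library-to-library spread that may be technical. In such bulk samples, fewer cells of a kind and less RNA per cell cannot be told apart.

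**Figure D1:**
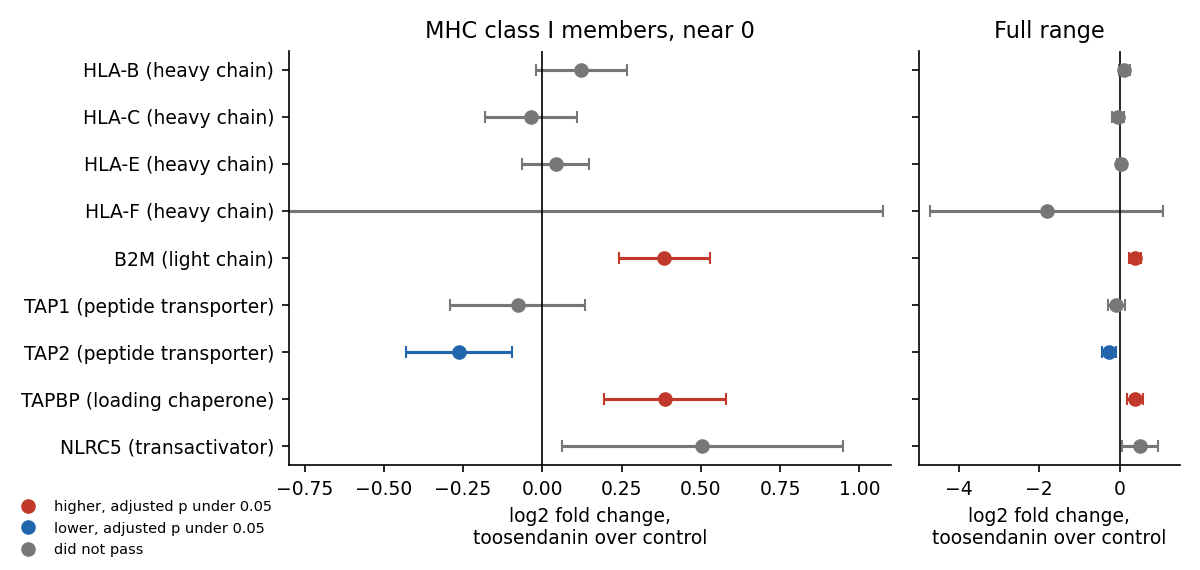
Log2 fold change, toosendanin over control, of the 9 members per the authors' deposited table, with 95% intervals from the deposited standard errors; the left panel shows the range near 0 and the right panel the whole range. B2M and TAPBP lie at 0.39, TAP2 lies at -0.26, and the interval of HLA-F runs from -4.71 to 1.07.

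Among the heavy chains, HLA-C, a classical class I molecule and a ligand of killer cell receptors, stood at -0.04 ± 0.07 per the authors' deposited table (mean normalized count 13703, DESeq2 adjusted p = 0.788). Its interval runs from a change of -11.7% to one of 7.83% after toosendanin. HLA-E, which presents leader peptides of other class I chains to natural killer cells, stood at 0.04 ± 0.05 per the authors' deposited table (mean normalized count 7399.5, DESeq2 adjusted p = 0.634). Its interval runs from a change of -4.35% to one of 10.8%. HLA-B, the other classical member, stood at 0.12 ± 0.07 per the authors' deposited table (mean normalized count 1867, DESeq2 adjusted p = 0.209), with an interval from -1.41% to 20.4%. For these 3 chains the intervals leave room for small changes and none for a change as large as 1.5 times.

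HLA-F, a non-classical chain that can reach the surface without peptide, was barely counted. It had a mean normalized count of 14.9 and stood at -1.82 ± 1.47 per the authors' deposited table (DESeq2 adjusted p = 0.394). The interval runs from 0.0383 to 2.11 times the control level, so a change of HLA-F was not detectable at this depth. Its SE of 1.47 compares with a median of 0.89 over 1767 genes with means within 2-fold of its own per the authors' deposited table, of which 8.49% were called. The heavy chains are near-identical over long stretches, have pseudogene relatives and differ between people, and how the authors' counting treated shared reads is not known, so the values of all 4 are uncertain on that account.

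B2M, the light chain of every class I molecule, was 1.31-fold higher after toosendanin, with an interval from 1.18 to 1.44. Per the authors' deposited table it stood at 0.39 ± 0.07 on the log2 scale (mean normalized count 7041, DESeq2 adjusted p = 1.8e-06). The summed inputs of its m6A region give a second view of the same input libraries, as far as those entered the deposited comparison. B2M had 5266 reads in toosendanin input and 5611 in control input, or 217 after toosendanin and 164 in control per 1000000 reads of all regions. Centred on the median of 9516 genes, this is a log2 ratio of 0.39, with a counting interval from 0.34 to 0.45. The direction and the size were those of the deposited value.

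The rise of B2M exceeded the change of each well-counted heavy chain. With the deposited errors taken as independent, B2M minus HLA-C was 0.42 ± 0.10 on the log2 scale, B2M minus HLA-E was 0.34 ± 0.09 and B2M minus HLA-B was 0.26 ± 0.10. The 95% intervals of these 3 differences lie above 0, the lowest starting at 0.06 for HLA-B. No p is given for them, because the covariance of genes within a library could not be estimated from a table of comparisons.

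The peptide-loading genes split. TAPBP, the tapasin that edits which peptides stay bound, stood at 0.39 ± 0.10 per the authors' deposited table (mean normalized count 1705, DESeq2 adjusted p = 0.000522). That is 1.31-fold higher, with an interval from 1.14 to 1.49. TAP2, a chain of the peptide transporter, stood at -0.26 ± 0.08 per the authors' deposited table (mean normalized count 1137, DESeq2 adjusted p = 0.00848). That is 0.833 times the control level after toosendanin, with an interval from 0.743 to 0.935. TAP1, the partner chain, stood at -0.08 ± 0.11 per the authors' deposited table (mean normalized count 1127, DESeq2 adjusted p = 0.662).

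TAP2 passed and TAP1 did not, but the transporter chains were not shown to differ: TAP2 minus TAP1 was -0.18 ± 0.14, with an interval from -0.45 to 0.08. TAPBP lay above both chains, by 0.46 ± 0.15 over TAP1 and 0.65 ± 0.13 over TAP2, with intervals above 0. TAPBP and B2M had like changes, with a difference, B2M minus TAPBP, of -0.000445 ± 0.12 and an interval from -0.24 to 0.24.

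NLRC5, the class I transactivator, stood at 0.50 ± 0.23 per the authors' deposited table, with a p of 0.0253 that did not pass after DESeq2's adjustment (adjusted p = 0.0743). Its fold of 1.42 has an interval from 1.04 to 1.93 (mean normalized count 214). The summed inputs of its m6A regions, 52 reads after toosendanin and 29 in control, give a larger log2 ratio of 1.33 after the same centring as for B2M, with a counting interval from 0.65 to 2.04. The SE of 0.23 is close to the median of 0.22 over 2874 genes with means within 2-fold per the authors' deposited table. NLRC5 minus HLA-B was 0.38 ± 0.24 and NLRC5 minus B2M was 0.12 ± 0.24, both with intervals that include 0. The interval of NLRC5 minus TAP1, 0.58 ± 0.25, starts at 0.09.

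**Figure D2:**
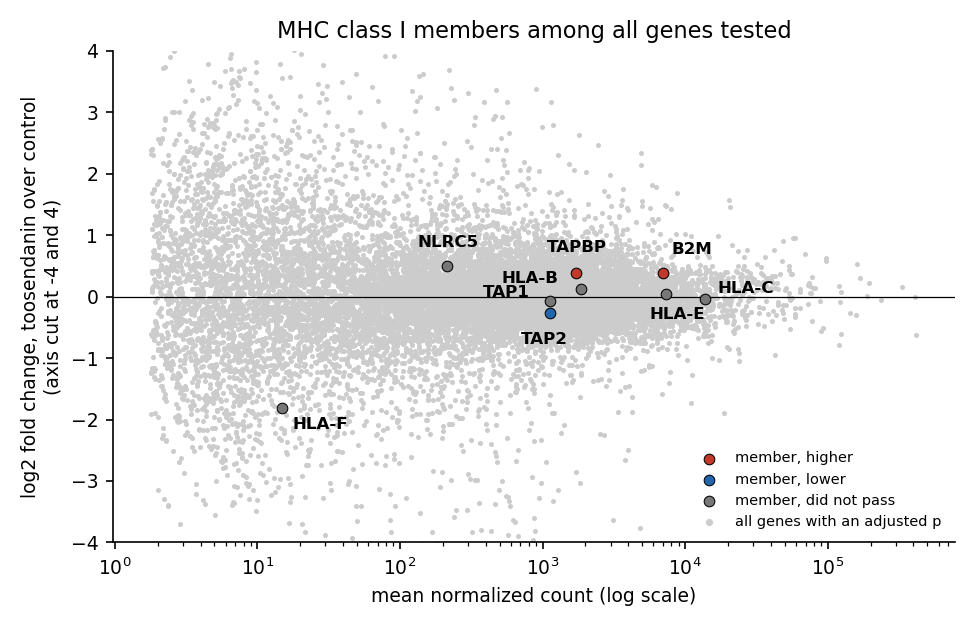
Log2 fold change, toosendanin over control, against mean normalized count on a log axis for all genes with an adjusted p per the authors' deposited table (grey), with the members coloured by call; values beyond -4 and 4 are not drawn. Of the members, 7 lie in the upper 50% of means and within 0.39 of 0, while HLA-F lies far to the left at a mean of 14.9.

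Over all genes with an adjusted p, the changes of B2M and TAPBP were about typical in size. Those genes include little-counted ones with larger errors, with a median SE of 0.89 near the mean of HLA-F against 0.07 near that of B2M. Sizes were not compared among genes of like mean. In absolute log2 fold change B2M exceeded 55.2% of all genes with an adjusted p per the authors' deposited table, TAPBP 55.3% and TAP2 41.5%. Over all genes called per the authors' deposited table, the median size of the log2 fold change was 0.53, above the 0.39 of B2M and TAPBP. Of genes with means within 2-fold of that of B2M, 58.6% were called per the authors' deposited table, and the shares were 44.2% for TAPBP and 41.4% for TAP2. A call is thus common at the depth of these members.

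For m6A, 2 of the 9 members had regions, B2M with 1 and NLRC5 with 4. The m6A table gives 1 count per condition, which the authors summed over libraries, so its p-values and all intervals given for it hold counting error only and no spread between libraries. Over all regions the sums were 29094328 for toosendanin IP, 24253006 for toosendanin input, 42316089 for control IP and 34131862 for control input. The file as used here gives no coordinates, so the part of the transcript in which a region lies is not analysed here, and regions are numbered in the order of the table. The ratios of IP over input below are scaled to these sums, so that 1 means no enrichment over the average of all regions.

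The B2M region was not enriched over the average of all regions. It held 2928 IP and 5266 input reads after toosendanin and 2996 IP and 5611 input reads in control. The scaled IP over input ratio was 0.463 after toosendanin (exact interval 0.443 to 0.485) and 0.431 in control (0.412 to 0.450). Both lie low among regions with at least 100 input reads, with 6.72% of 22283 such regions lower after toosendanin and 6.61% of 25670 lower in control. Per the authors' deposited table the log2 fold change of the ratio was 0.05, with a p of 0.298 and an FDR of 0.592 (counting error 0.05). At an FDR under 0.05, 0 of the 1 member region with an FDR was called per the authors' deposited table, against 8.95% of 24688 regions (2.71% higher and 6.24% lower).

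The NLRC5 regions held few reads. Region 4, the best counted, had 49 IP and 24 input reads after toosendanin and 51 IP and 21 input reads in control. Its scaled ratio was 1.70 after toosendanin (exact interval 1.02 to 2.90) and 1.96 in control (1.16 to 3.43). Region 4 was thus enriched over the average of all regions in both conditions, beyond counting error. The log2 fold change per the authors' deposited table was -0.32, with a p of 0.533.

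Regions 1 and 2 of NLRC5 had lower ratios after toosendanin at an unadjusted p, but on handfuls of input reads. Region 1 had 16 IP and 12 input reads after toosendanin and 22 IP and 3 input reads in control, with scaled ratios of 1.11 (exact interval 0.493 to 2.57) and 5.92 (1.78 to 30.9). The authors' deposited table lists it at -2.55 with a p of 0.0148. Region 2 had 8 IP and 7 input reads after toosendanin and 13 IP and 1 input read in control, with scaled ratios of 0.953 (0.302 to 3.09) and 10.5 (1.57 to 446). The authors' deposited table lists it at -3.49 with a p of 0.0163. In both regions the input count was higher after toosendanin although the summed input over all regions was lower.

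Region 3 of NLRC5 had 13 IP and 9 input reads after toosendanin and 14 IP and 4 input reads in control, and was listed at -1.36 with a p of 0.186 per the authors' deposited table. None of the 4 regions has an FDR per the authors' deposited table, so none is a call. Without an FDR filter, 2 of 5 member regions had a p under 0.05, against 15.6% of all regions and 6.83% of the 8506 regions with at most 50 summed input reads per the authors' deposited table. Both were lower, as were 10.5% of all regions and 5.04% of those with few input reads at that p. Summed over its 4 regions, a sum chosen after the values were seen, NLRC5 had 2.96 IP and 2.14 input reads per 1000000 after toosendanin, and 2.36 IP and 0.850 input reads per 1000000 in control. The scaled ratio of the sums was 1.38 after toosendanin (exact interval 0.966 to 1.98) and 2.78 in control (1.82 to 4.36). Whether regions of a gene overlap and share reads is not known.

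**Figure D3:**
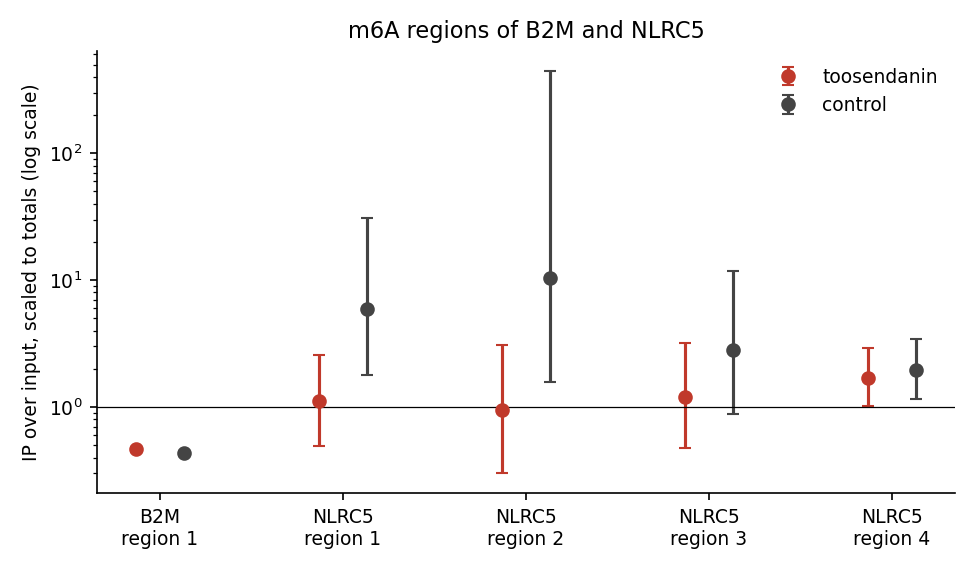
IP over input ratio of the B2M region and the 4 NLRC5 regions, toosendanin left (red) and control right (dark grey) in each pair, scaled to the sums over all regions and drawn on a log axis; bars are exact 95% intervals for counting error only. B2M lies below 1 in both conditions, at 0.463 and 0.431, and the NLRC5 regions 1 and 2 have the widest intervals.

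The other 7 members, HLA-B, HLA-C, HLA-E, HLA-F, TAP1, TAP2 and TAPBP, had no region in the m6A table used here, and their m6A is not analysed here. They share a location, the MHC on chromosome 6, and the table named no region for their neighbours either. In the gene order of RefSeq, 61 protein-coding genes from HLA-F to TAPBP had a mean normalized count of at least 500, and 0 of them had a region. The stretch without one extended to 67 such genes, starting with TRIM27 and ending with CUTA, and was bounded by ZSCAN31 and ITPR3, which had regions. Outside this stretch, 117 of 7477 protein-coding genes with such a count lacked a region, which is 1.56%. The stretch was found by walking outward from the members, so its own count follows from how it was found. The count from HLA-F to TAPBP does so in part. Its ends were set by members without a region, and 6 of its 61 genes are such members, while the others are neighbours not used to set it. The longest such stretch on another chromosome held 7 genes, on the X chromosome.

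Well-counted members were without regions and a less counted one was not. HLA-C, with a mean normalized count of 13703, and HLA-E, with 7399.5, had none, while NLRC5 had 4 regions with a mean of 214. The stretch was covered in the expression table, where 15 of its 67 genes were higher and 24 lower after toosendanin, with a median log2 fold change of -0.04. That is 58.2% called, against 46.2% of the 7544 protein-coding genes with such a count per the authors' deposited table. Why the table names no region there was not tested. A lack of regions for these 7 members is therefore no measurement of their m6A.

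**Figure D4:**
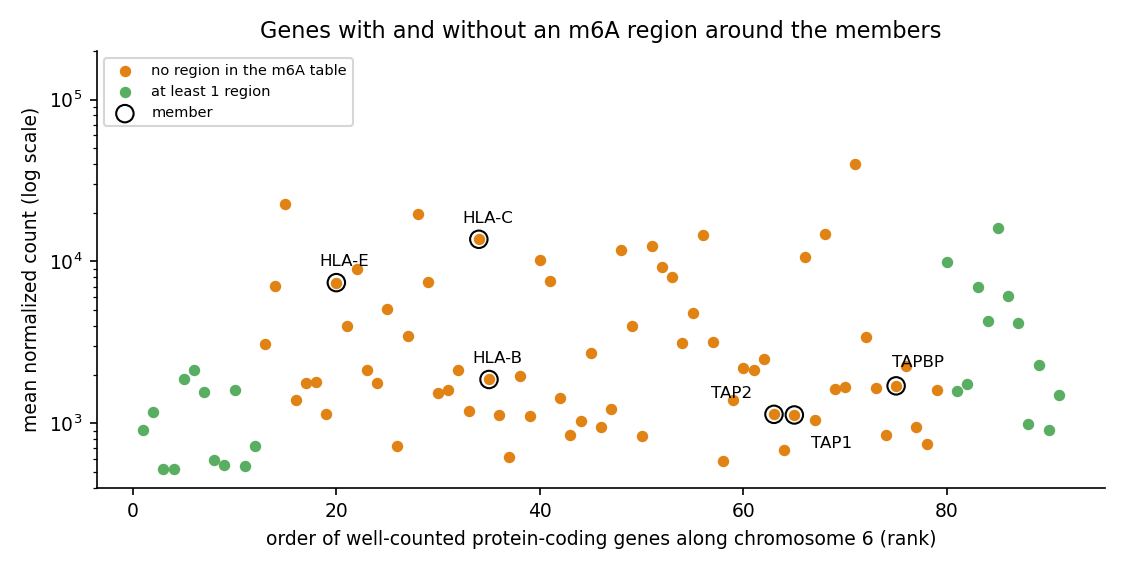
Mean normalized count (log axis) of protein-coding genes with a mean of at least 500, in their order along chromosome 6 (rank), coloured by whether the m6A table names a region for them; circles mark the members HLA-E, HLA-C, HLA-B, TAP2, TAP1 and TAPBP. The 67 genes of the middle stretch have no region, and the 12 genes drawn on each side have at least 1.

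Around the members, 7 lists of genes of the same pathway and its control were counted per the authors' deposited table, to be read beside the 31.4% called over all genes. Of 13 other class I and class I-like genes with an adjusted p, 4 rose and 1 fell per the authors' deposited table, with a median of 0.29 (7 more were listed at a mean of 0). AZGP1, a secreted class I-like glycoprotein, stood at 0.29 ± 0.05, MICB, a stress-induced ligand of natural killer cells, at 0.74 ± 0.13 and MR1, which presents vitamin B metabolites, at 0.35 ± 0.12 per the authors' deposited table. MICA, the close relative of MICB, stood at 0.09 ± 0.11 there and did not pass. Also among the 4 that rose was HLA-L, at 0.93 ± 0.36 on a mean of 69.0 per the authors' deposited table. The median takes in little-counted genes that did not pass. ULBP3 stood at 2.18 ± 1.57 on a mean of 9.61, ULBP1 at 1.44 ± 0.72 on 12.9 and HLA-J at -0.30 ± 0.76 on 27.7. MICA, HLA-L, ULBP3, ULBP1 and HLA-J were chosen after their values were seen.

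Of 19 peptide loading and trimming genes 4 rose and 2 fell per the authors' deposited table, with a median of -0.000933. The cytosolic peptidase THOP1 stood at 0.75 ± 0.07, the metalloprotease NRDC at -0.25 ± 0.06, the aminopeptidase NPEPPS at 0.22 ± 0.06 and calnexin, CANX, which folds new heavy chains, at 0.37 ± 0.10 per the authors' deposited table. Of 11 immunoproteasome, activator and related proteasome genes 1 rose and 0 fell per the authors' deposited table, with a median of 0.04. The gene that rose was POMP, a proteasome assembly factor, at 0.56 ± 0.11. The immune catalytic subunits, named after their values were seen, did not pass, with PSMB8 at -0.01 ± 0.12, PSMB9 at 0.67 ± 0.35 and PSMB10 at 0.04 ± 0.21 per the authors' deposited table.

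Of 29 regulators of class I transcription 2 rose and 3 fell per the authors' deposited table, with a median of -0.12. EZH2, a catalytic subunit of the polycomb complex that can silence class I genes and that is also tied to proliferation, stood at -0.81 ± 0.10 per the authors' deposited table. The E-box factor USF2 stood at 0.44 ± 0.10, NFKB2 at -0.26 ± 0.06 and IRF9, the DNA-binding part of the interferon-stimulated factor, at 0.78 ± 0.20 per the authors' deposited table. Partners of NLRC5 at the shared promoter element did not pass, and those named here after their values were seen are RFX5 at -0.12 ± 0.10 and RFXAP at -0.37 ± 0.20 per the authors' deposited table.

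Of 21 interferon receptor and JAK-STAT genes 5 were called higher and 5 called lower per the authors' deposited table, with a median of -0.03. The receptor chains moved in both directions: IFNGR2 at 0.70 ± 0.09, IFNLR1 at 0.87 ± 0.14 and IFNAR1 at 0.53 ± 0.09 rose per the authors' deposited table, while IFNGR1, the partner chain of IFNGR2, fell, at -0.24 ± 0.07 (DESeq2 adjusted p = 0.00429). IFNAR2, at 0.13 ± 0.24 per the authors' deposited table, and IL10RB, at 0.32 ± 0.19, were not called. IFNGR1, IFNAR2 and IL10RB were named after their values were seen. USP18, which dampens type I interferon signalling, stood at -0.63 ± 0.10 per the authors' deposited table.

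Of 20 genes of class I surface turnover 4 rose and 1 fell per the authors' deposited table, with a median of 0.14. IRGQ, a receptor that sends class I to autophagy, stood at 0.37 ± 0.09, NBR1, an autophagy cargo receptor, at -0.15 ± 0.04, the signal peptide peptidase HM13 at 0.23 ± 0.07 and TMEM127, part of a complex that removes class I from the surface, at 0.49 ± 0.15 per the authors' deposited table.

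Of 15 class II pathway genes, 8 were listed at a mean of 0. CD74 at a mean of 3219, LGMN at 1729 and IFI30 at 1669 were well counted. The rest had means of 45.1 (CTSS) or less, among them HLA-DMA at 11.4 and HLA-DRB1 at 0.771. CD74 and LGMN did not pass, at 0.68 ± 0.34 and -0.01 ± 0.11 per the authors' deposited table. CD74, LGMN, CTSS, HLA-DMA and HLA-DRB1 were named after their values were seen. Of the 6 with an adjusted p, 1 rose and 0 fell per the authors' deposited table. The gene that rose was IFI30, a lysosomal thiol reductase, at 2.06 ± 0.09. The list's median of 0.85 rests on 6 genes, among them HLA-DQA1, chosen after its value was seen, at 5.07 ± 3.73 on a mean of 2.66 per the authors' deposited table.

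The cells expressed the genes of a liver cell. All 13 hepatocyte markers were counted, among them ALB at a mean normalized count of 161730 and AFP at 158750, and 5 rose and 3 fell per the authors' deposited table. APOA1 stood at 0.58 ± 0.06, ALB at 0.52 ± 0.08, RBP4 at 0.44 ± 0.08 and AFP at -0.29 ± 0.06 per the authors' deposited table. Of 14 blood and immune markers, PTPRC, CD3E, MS4A1 and ITGAM were listed at 0, and of the 7 with an adjusted p 1 rose and 1 fell, namely CD68 at 1.41 ± 0.09 and LYZ at -0.37 ± 0.06 per the authors' deposited table. CD68 is also a general lysosomal protein, and LYZ had a mean of 49191 beside the 0 of PTPRC, the pan-leukocyte marker.

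**Figure D5:**
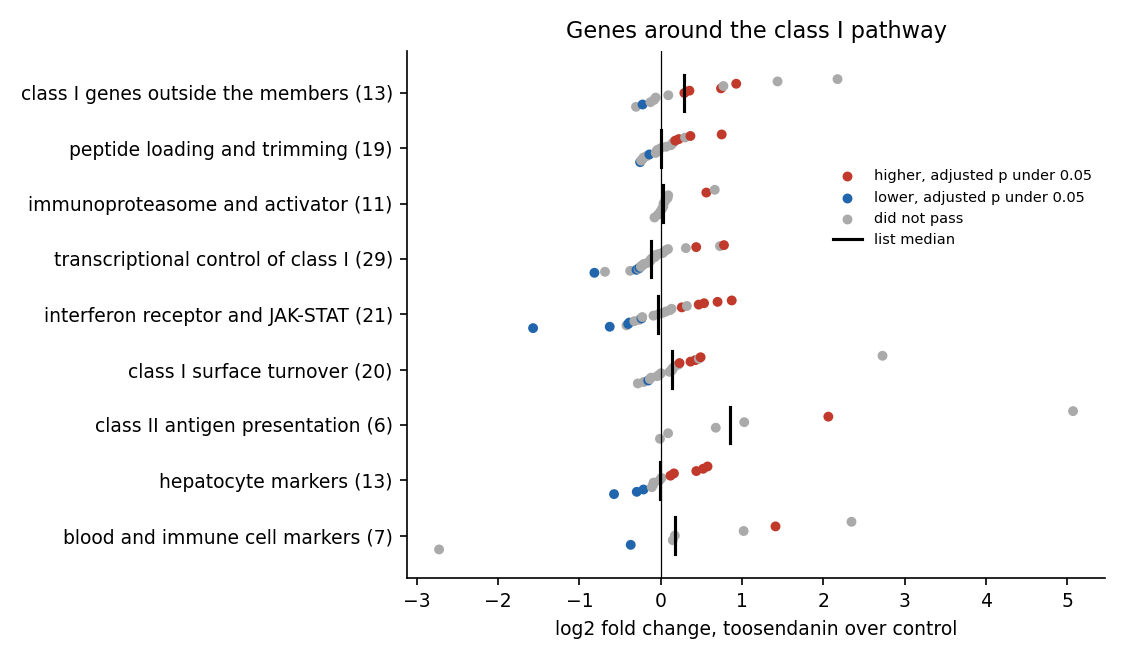
Log2 fold change, toosendanin over control, of each gene with an adjusted p in the 9 lists (points, number of genes in brackets) per the authors' deposited table, with the list median as a black line. Called genes lie on both sides of 0 in 7 lists, and the medians lie between -0.12 and 0.29 except for class II at 0.85.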

How the data were processed

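RNA of 12 HepG2 libraries (IP and input, toosendanin and control, 3 each) was made with a stranded mRNA kit with unique molecular identifiers, per the labels' protocols. The submitters' processing notes list HISAT2, StringTie and DESeq with no version; genome build, annotation, counting and region caller were not given in the sources used here. The expression table, deposited by the authors, holds a mean normalized count (a signal, counts over size factors), a log2 fold change with its SE, a Wald score, and raw and adjusted p-values. The m6A table, deposited by the authors, holds whole-number counts per region summed over the libraries of a condition, a log2 fold change of IP over input, a p-value and an FDR. Neither holds values per library, so the deposited tests were used and nothing was refitted.

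A call needs an adjusted p or FDR under 0.05. Positive values were taken to mean higher after toosendanin, since across 9495 genes the deposited log2 fold change followed the log2 ratio of summed inputs (Pearson r 0.84, a description). Intervals for ratios of summed counts are exact (Clopper-Pearson) 95% intervals, for counting error only. Of the members, 9 of 9 had an adjusted p; the lowest mean with one was 1.8. Members and lists were chosen with earlier results of these data known. Named from each list were up to 4 called genes with the smallest adjusted p, beside those marked as chosen later; a gene the rule takes is not reported here. Gene order came from RefSeq names, matched by symbol. The adjustment and the m6A counting test were tested on simulated data. Alternatives were stricter limits, other filters, centring and scaling. Tools were scipy 1.17.1, pandas 2.3.3 and numpy 2.4.6 under Python 3.11.15.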

Additional observations from a re-analysis of the deposited data

How the results depend on the processing

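B2M, TAPBP and TAP2 were the 3 members called, in the same directions, at an adjusted p under 0.01 (23.8% of all genes called), without the filter on low means (26.6%), after centring on the median (31.3%) and among the upper 50% of means, where 3 of 7 members were called against 48.0% of genes. With a limit of 2-fold, 0 members were called in the DESeq2 table, against 7.29% of genes. No called value changed sign. The log2 fold change of NLRC5 was 1.33 from its summed inputs (52 reads after toosendanin and 29 in control, counting interval 0.65 to 2.04), against 0.50 in the authors' deposited table; the cause was not tested. No member region was called under any m6A setting tried, but few were tested. Only the B2M region was tested at an FDR under 0.01 (4.98% of all regions called) and among regions of at least 100 reads (10.9%), and 3 regions were tested among enriched ones (3.25%). All 5 were tested after centring (3.69%), scaling to totals (4.45%) and widening by the robust spread (1.32%), among single-gene regions (4.15%), and under an adjustment over all regions added after the data were seen (4.22%). Over the settings that tested it, the adjusted p of NLRC5 region 1 lay between 0.171 and 0.706. Scaled to total counts, the B2M region stood at a log2 fold change of 0.11, against the deposited 0.05, and was not called. No paired analysis was possible because the files hold no values per library; for the same reason the edgeR fit and the fits without each replicate were not run. Low counts limit HLA-F and the NLRC5 regions.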

Other observations

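The m6A of the lists around the members was counted where the table names regions, with calls at an FDR under 0.05 in the authors' deposited table, counting error only, and 8.95% of all regions called. Of 60 regions of peptide loading and trimming genes 2 were higher and 10 lower after toosendanin in the authors' deposited table. Of 74 regions of class I regulators 0 were higher and 8 lower, and of 46 regions of surface turnover genes 1 was higher and 5 lower in the authors' deposited table. Over all regions, 2.71% were higher and 6.24% lower there, so calls were more often downward in general. Interferon receptor and JAK-STAT genes had 0 of 45 regions called in the authors' deposited table. An unadjusted p under 0.05 was listed for 10 of their 82 regions, against 15.6% of all regions. Of 22 regions of the proteasome list 0 were higher and 2 lower, and of 4 regions of other class I genes 0 were higher and 1 lower in the authors' deposited table. Of 39 hepatocyte marker regions 7 were higher and 13 lower in the authors' deposited table. These markers include genes of very high mean count, such as ALB and AFP, and the 8.95% is not matched for read depth. In all these lists the regions of a gene were counted singly, so the shares do not compare m6A between lists. Class II genes had 2 higher of 8 regions and blood and immune markers 2 higher of 5 in the authors' deposited table, and neither list had a lower one.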
